A study of Mus musculus with 4 samples.

Results

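The AP-1 and early response transcription factor genes Fos, Fosb, Fosl1, Fosl2, Jun, Junb, Jund, Atf3 and Egr1 were followed through the cells of the mouse trachea. The 9 genes were found by their symbols among the 22583 features of a deposited single-cell count matrix, and all 9 were detected. The matrix held 4 libraries of tracheal cells, made for 3 mutant lines with primary ciliary dyskinesia and for wild-type mice. The mutant groups were bgh, with a mutated Spef2 and 5 pooled tracheas, Cfap54gt/gt, with a gene trap in Cfap54 and 6 pooled tracheas, and nm1054, lacking Cfap221, with 6 pooled tracheas. The wild-type group had 6 pooled tracheas, and all mice were 5 to 8 months old on the 129S6/SvEvTac background. In every group the tissue was digested with pronase, the cells stayed in culture dishes for some hours to separate off fibroblasts, and dead cells were removed, all before 8500 cells were loaded to capture at least 5000. Dissociation and holding time were therefore part of the treatment of every cell, and no undissociated sample was analysed here.

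Each genotype had 1 library. Barcodes end in a library number from 1 to 4, but which genotype a number stands for is not given in the sources used here. No mutant was therefore compared with wild-type, and libraries 1 to 4 are given side by side. Values are counts of unique molecular identifiers (UMIs, 1 per captured RNA molecule), summed over the cells of a class in a library and given as CPM, which scales that sum to a common total. After filtering, 3692, 3830, 6746 and 5203 cells remained in libraries 1 to 4, and 52 barcode sequences occurred in more than 1 library. Clusters were named from markers, with the 9 genes left out of the clustering. They gave 4751 ciliated-like, 5061 basal-like, 5840 secretory-like and 731 hillock-like cells. The hillock-like cells had 6 of 8 hillock markers up, but also 7 of 8 secretory and 6 of 9 basal markers. Which cells took the hillock-like name changed with the clustering, as given below, so hillock-like levels describe this cluster only. The ciliated-like clusters had 10 of 10 ciliated markers up, basal-like ones 7 or 8 of 9 basal markers and secretory-like ones 7 of 8 secretory markers. Depth differed between the classes, with medians of 2521, 4044 and 10788.5 UMIs per cell in ciliated-like, basal-like and secretory-like cells.

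AP-1 factors are dimers of basic leucine zipper proteins. A Jun protein pairs with itself, with a Fos protein or with an Atf protein, and Fos proteins bind DNA only in such pairs. Fos, Fosb, Jun, Junb, Atf3 and Egr1 are immediate early genes, whose RNA appears within minutes of a growth signal or stress, without new protein, and is then quickly degraded. Enzymatic dissociation of tissue is a known trigger of them, so in single-cell data they are widely read as a handling response, although injury and growth signals in the airway use the same genes.

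Immediate early genes answer signals through short elements close to their start sites. The promoters of the 4 members with the clearest class patterns or best-known elements are shown, from 250 bases before to 50 after the start, in the RefSeq annotation of GRCm38.p6. Of the 9 members, 7 were matched, and Fosl1 and Egr1 were not. Capitals mark TGACG on either strand (on the opposite strand it reads CGTCA), the core of the element bound by CREB and Atf proteins, TGACATCA, the Jun and Atf2 element of the Jun gene, and TATAAA, the TATA box. The 4 sequences are at chr12:85473640-85473939 (plus strand) for Fos, chr7:19309996-19310295 (minus) for Fosb, chr4:95052173-95052472 (minus) for Jun and chr1:191183284-191183583 (minus) for Atf3, each read 5′ to 3′.
Fos: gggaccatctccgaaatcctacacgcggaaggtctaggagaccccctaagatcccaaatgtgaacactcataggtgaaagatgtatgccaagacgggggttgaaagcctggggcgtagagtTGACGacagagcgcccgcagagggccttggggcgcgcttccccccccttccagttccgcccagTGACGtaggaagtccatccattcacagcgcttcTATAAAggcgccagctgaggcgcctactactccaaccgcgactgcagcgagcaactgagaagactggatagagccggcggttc
Fosb: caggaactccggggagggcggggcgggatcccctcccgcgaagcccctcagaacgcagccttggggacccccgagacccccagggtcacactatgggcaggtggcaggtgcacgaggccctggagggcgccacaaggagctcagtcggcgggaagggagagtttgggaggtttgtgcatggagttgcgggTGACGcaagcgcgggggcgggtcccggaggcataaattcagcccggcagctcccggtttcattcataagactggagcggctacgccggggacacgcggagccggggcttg
Jun: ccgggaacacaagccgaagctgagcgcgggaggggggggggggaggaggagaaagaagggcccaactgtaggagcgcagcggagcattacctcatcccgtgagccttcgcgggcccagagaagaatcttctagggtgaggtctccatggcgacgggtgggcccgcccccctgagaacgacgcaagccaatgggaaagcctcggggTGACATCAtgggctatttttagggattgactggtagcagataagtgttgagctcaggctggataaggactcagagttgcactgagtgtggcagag
Atf3: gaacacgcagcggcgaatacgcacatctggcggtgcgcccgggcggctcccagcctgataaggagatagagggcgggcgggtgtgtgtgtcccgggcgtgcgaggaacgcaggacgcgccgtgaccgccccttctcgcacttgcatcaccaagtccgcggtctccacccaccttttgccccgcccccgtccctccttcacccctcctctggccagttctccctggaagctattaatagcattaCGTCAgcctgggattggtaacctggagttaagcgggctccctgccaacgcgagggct

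TGACG began 129 and 66 bases before the start of Fos and 60 before that of Fosb, and the opposite-strand match in Atf3 began 7 bases before its start. TGACATCA began 45 bases before the start of Jun, and TATAAA 33 before that of Fos. Among 32851 mouse promoters of the same length, 20.8% held TGACG on either strand, 3.62% TGACATCA and 13.6% TATAAA. Among the 7 member promoters, 4 held TGACG, those of Fos, Fosb, Junb and Atf3. The Egr element GCGGGGGCG, in 2.91% of promoters, was in those of Fosb and Fosl2. The full CREB element TGACGTCA (1.79% of promoters), the AP-1 site TGANTCA (7.81%) and the CArG box of serum response factor (1.63%) were in none of the 7 windows. The windows end 250 bases before the start, so an element further upstream, in Fos or another member, would not be seen. All motifs were searched on both strands, TGACG also lies inside TGACGTCA, and a match is a description of letters, not of binding.

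Together the 9 genes made up a larger share of RNA in ciliated-like and basal-like than in secretory-like cells. Over libraries 1 to 4 the ciliated-like sums were 11455, 11321, 9916 and 14592 CPM, the basal-like sums 7566, 8194, 8840 and 9035 CPM, and the secretory-like sums 1890, 2038, 2042 and 2099 CPM. The 3 classes did not overlap, and secretory-like cells lay further below the other 2 than libraries differed within a class. Ciliated-like and basal-like cells were closer, at 9916 against 9035 CPM where they came nearest. That gap was smaller than the spread of the ciliated-like libraries. Secretory-like cells spent 40.4% to 43.7% of their UMIs on the marker genes of all cell types, mostly secretory products, against 2.999% to 4.47% in ciliated-like and 1.91% to 3.07% in basal-like cells. That lowers every other gene's CPM in secretory-like cells, so ratios are read beside the median ratio of all genes.

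**Figure D1:**
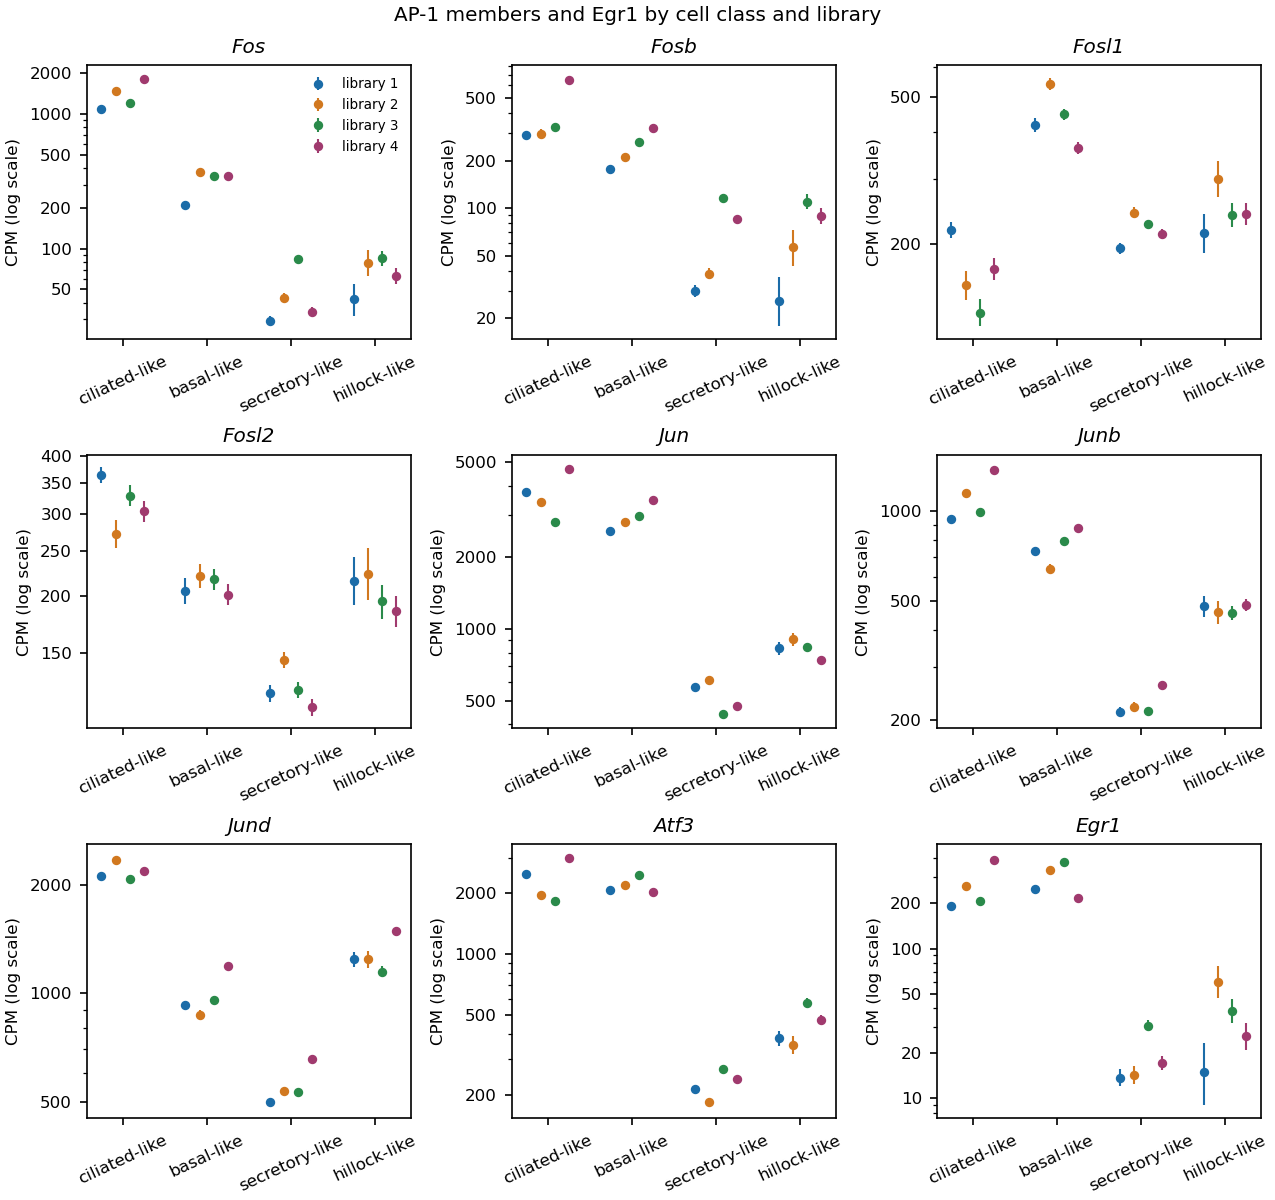
Level of each of the 9 genes in CPM (log axis, a separate range per gene) in 4 cell classes, with 1 point per library and 95% Poisson intervals. Fos is highest in ciliated-like cells in every library, Atf3 and Jun lie together in ciliated-like and basal-like cells, and Fosl1 is highest in basal-like cells.

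Fos, the partner of Jun that is induced and lost most quickly, had the widest range over classes. Its ciliated-like level was 1087 CPM in library 1 (95% exact Poisson interval 1063 to 1112), 1487 in library 2 (1444 to 1530), 1207 in library 3 (1174 to 1241) and 1823 in library 4 (1785 to 1861). Its basal-like level was 211, 372, 349 and 345 CPM, and its secretory-like level 29.1, 43.3, 84.1 and 34.3 CPM. The 3 classes kept this order in all 4 libraries without overlap, while hillock-like cells, at 42.3 to 85.6 CPM, overlapped secretory-like cells. The log2 ratio of ciliated-like over secretory-like cells, with 1 CPM added to both, was 5.18, 5.07, 3.83 and 5.69. Library 3 gave the smallest ratio and also the highest secretory-like level. These intervals cover counting error only, since no genotype had a second library.

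Fosb, a second quickly induced Fos protein, was at 291, 296, 326 and 648 CPM in ciliated-like cells and at 176, 210, 262 and 323 CPM in basal-like cells. It was at 29.9, 38.2, 116 and 84.9 CPM in secretory-like cells. The ciliated-like and basal-like ranges overlapped and both lay above the secretory-like range.

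Fosl1, the Fos-related gene tied to growth and wound repair in epithelia, broke the pattern. It was at 218, 155, 131 and 171 CPM in ciliated-like cells, 419, 542, 448 and 363 CPM in basal-like cells and 194, 243, 226 and 213 CPM in secretory-like cells. Basal-like cells were highest in all 4 libraries with no overlap, and the ciliated-like and secretory-like ranges overlapped. Fosl2, the other late and more stable Fos relative, was at 364, 271, 329 and 304 CPM in ciliated-like cells, 205, 221, 217 and 201 CPM in basal-like cells and 123, 145, 125 and 115 CPM in secretory-like cells. Its ciliated-like, basal-like and secretory-like ranges were in the order of Fos, also without overlap, but lay much closer together. Hillock-like cells, at 185 to 223 CPM of Fosl2, overlapped basal-like cells, and not secretory-like cells as for Fos.

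Jun, the main partner of Fos, was at 3748, 3406, 2824 and 4712 CPM in ciliated-like cells and 2576, 2814, 2975 and 3492 CPM in basal-like cells. It was at 572, 611, 444 and 476 CPM in secretory-like cells. Unlike Fos, Jun overlapped between ciliated-like and basal-like cells, and in library 3 the basal-like level was the higher one. Junb, which can oppose Jun at some targets, was at 941, 1150, 995 and 1371 CPM in ciliated-like, 735, 642, 794 and 879 CPM in basal-like and 213, 222, 214 and 261 CPM in secretory-like cells, in 3 ranges that did not overlap.

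Jund, the Jun protein made most constantly and least dependent on stimulation, was at 2118, 2341, 2076 and 2187 CPM in ciliated-like cells, 926, 872, 959 and 1190 CPM in basal-like cells and 500, 536, 534 and 658 CPM in secretory-like cells. Hillock-like cells, at 1243, 1245, 1150 and 1487 CPM, came second for Jund, overlapping basal-like cells. In the other Jun genes they lay below basal-like cells.

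Atf3, a stress-induced repressor and activator that pairs with Jun, was at 2496, 1955, 1822 and 2984 CPM in ciliated-like and 2067, 2188, 2460 and 2025 CPM in basal-like cells. In secretory-like cells it was at 214, 184, 269 and 239 CPM. Ciliated-like and basal-like levels lay in the same range, and the lowest of them was several times the highest secretory-like one. Egr1, a zinc finger factor outside AP-1 that responds to the same kinases, was at 192, 261, 206 and 393 CPM in ciliated-like cells, 251, 334, 376 and 218 CPM in basal-like cells and 13.7, 14.3, 30.6 and 17.2 CPM in secretory-like cells. In these sums basal-like cells had more Egr1 than ciliated-like cells in libraries 1, 2 and 3, and less in library 4. The share of cells with Egr1 ran the other way in library 1, as given below.

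The rare classes are given as sums over the 4 libraries, since some libraries held under 10 of their cells. Proliferating-like cells (155 cells) had 8 of 9 basal, 6 of 8 secretory and 5 of 8 hillock markers up. They lay between basal-like and secretory-like cells, with Fos at 175 CPM, Jun at 2118 CPM and Atf3 at 1267 CPM. Tuft-like cells (148 cells) had Jun at 302 CPM and Atf3 at 50.6 CPM, against 521 and 229 CPM in secretory-like cells, while Jund was at 1315 CPM there against 558 CPM in secretory-like cells. Tuft-like Fos, at 37.1 CPM from 22 UMIs (95% interval 23.2 to 56.1), did not differ from the 48.8 CPM of secretory-like cells beyond counting error. Ionocyte-like cells (37 cells) had Fos at 65.6 CPM (95% interval 35.8 to 110), Jun at 1002 CPM and Fosl1 at 492 CPM. T cell-like cells (41 cells) had 24 Fos UMIs, of which 23 were in library 3, at 674 CPM (427 to 1012), 1 in library 1 and 0 in libraries 2 and 4, so Fos in this class rests on library 3.

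To ask which class differences held in every library, a gene was called where its log2 CPM ratio was at least 1 in the same direction in 4 of 4 libraries, among genes with at least 50 UMIs in the classes compared. This is a rule of size and not a test. Ciliated-like over secretory-like cells, 7 of the 9 members were called higher and 0 lower, against 31.0% of 11916 genes called higher and 2.95% lower (33.9% in either direction). Median log2 ratios were 5.12 for Fos, 3.90 for Egr1, 3.47 for Atf3, 2.92 for Fosb, 2.69 for Jun, 2.29 for Junb and 2.02 for Jund, against 0.81 over all genes tested. Fosl2 had a median of 1.39 but missed the call with 0.90 in library 2, and Fosl1 had a median of -0.48, with ratios of -0.79 to 0.17.

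Basal-like over secretory-like cells, 6 members were called higher and 0 lower, against 17.3% of 11593 genes higher and 2.13% lower (19.5% in either direction). The medians were 3.84 for Egr1, 3.23 for Atf3, 2.94 for Fos, 2.47 for Jun, 2.17 for Fosb and 1.76 for Junb, against 0.55 over all genes. Fosl1 at 1.04 missed the call with 0.99 in library 3 and 0.77 in library 4. Jund at 0.85 and Fosl2 at 0.76 lay near the median of all genes, and Fosl2 moved to -0.01 with the cell type marker genes left out of the totals.

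Ciliated-like over basal-like cells, 1 member was called higher, Fos, with ratios of 2.36, 2.0, 1.79 and 2.40, and 0 were called lower. Of 11794 genes, 21.3% were called higher and 10.2% lower (31.4% in either direction), so this count of members is no larger than the background. The other medians were 1.15 for Jund, 0.61 for Fosb, 0.60 for Fosl2, 0.50 for Junb, 0.35 for Jun, 0.05 for Atf3 (-0.17 under TMM scaling, described next), -0.37 for Egr1 and -1.43 for Fosl1, against 0.27 over all genes. Fosl1 was lower in ciliated-like cells in 4 of 4 libraries and missed the call with -0.94 in library 1. Jund was higher in 4 of 4 and missed it with 0.88 in library 4. These 3 comparisons share their libraries and classes and are not independent.

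**Figure D2:**
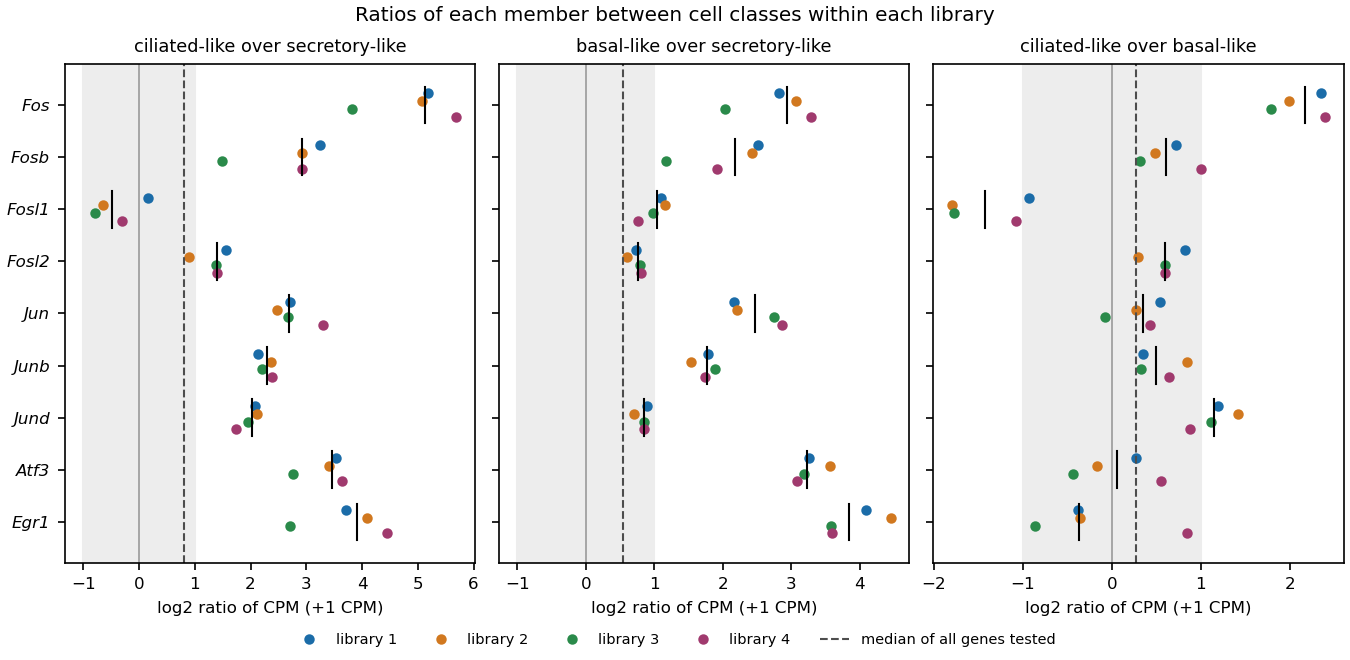
Log2 ratio of CPM (1 CPM added) between cell classes for each gene, with 1 point per library, a black bar at the median and a dashed line at the median of all genes tested. The grey band holds ratios under 1 log2 unit. Fos lies between 1.79 and 2.40 in the panel of ciliated-like over basal-like cells, where most other genes fall in the band.

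TMM scaling, a method of edgeR that centres the bulk of genes, moved the all-gene medians to -0.04, -0.06 and 0.03 in the order of comparisons above. Higher calls then made up 61.8% of all calls in ciliated-like over secretory-like cells, against 91.3% with plain CPM. In basal-like over secretory-like cells they made up 54.2%, against 89.1% with plain CPM. Under TMM, 5 members were called higher in ciliated-like over secretory-like cells (Fos, Jun, Junb, Atf3 and Egr1), beside 14.3% of all genes called higher and 8.83% lower. In basal-like over secretory-like cells 4 were (Fos, Jun, Atf3 and Egr1), beside 6.18% of all genes called higher and 5.24% lower. Fos, Jun, Atf3 and Egr1 thus kept both calls, whereas Fosb (medians of 1.99 in ciliated-like and 1.48 in basal-like over secretory-like cells), the ciliated-like call of Jund (1.02) and the basal-like call of Junb (1.01) missed the rule in at least 1 library. In ciliated-like over basal-like cells TMM gave Fos as higher and Fosl1 as lower, beside 17.6% and 12.4% of all genes, and Atf3 changed sign. With the cell type marker genes left out of the totals, 6 members were higher in ciliated-like over secretory-like cells, beside 17.2% of genes higher and 6.6% lower. In the same setting 4 were higher in basal-like over secretory-like cells, beside 6.17% higher and 5.84% lower, and Fos alone in ciliated-like over basal-like cells, beside 21.7% higher and 9.98% lower.

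The sums do not say how many cells carried the RNA, so each cell was thinned to 1000 UMIs and cells with fewer were left out (596 ciliated-like, 40 basal-like and 53 secretory-like cells). At that depth Fos was seen in 53.3% of ciliated-like cells in library 1 (95% Clopper-Pearson interval 50.3 to 56.3), 57.8% in library 2 (54.5 to 61.1), 60.6% in library 3 (57.6 to 63.5) and 66.3% in library 4 (63.4 to 69.1). It was seen in 13.9%, 24.3%, 22.7% and 19.99% of basal-like cells and in 3.59%, 4.81%, 7.65% and 4.10% of secretory-like cells. Without thinning the shares were 74.0% to 81.8% in ciliated-like, 42.0% to 47.7% in basal-like and 19.4% to 26.3% in secretory-like cells, in the same order and without overlap. No class here can be taken to lack AP-1 RNA, so the share that free RNA in droplets adds was not measured.

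For Jun, basal-like cells reached the ciliated-like share after thinning, with 76.4% to 85.2% of basal-like and 79.9% to 85.7% of ciliated-like cells, against 33.3% to 40.5% of secretory-like cells. For Egr1 the thinned shares were 20.2% to 29.0% in ciliated-like, 14.3% to 21.7% in basal-like and 1.75% to 2.99% in secretory-like cells. For Fosl1 they were 8.51% to 14.3% in ciliated-like, 27.6% to 37.4% in basal-like and 17.2% to 19.8% in secretory-like cells. Unthinned, ciliated-like, basal-like and secretory-like shares were 88.8% to 90%, 95.9% to 97.9% and 86.3% to 96.4% for Jun, 33.6% to 45.2%, 34.5% to 42.8% and 10.6% to 12.9% for Egr1, and 22.2% to 40.6%, 66.2% to 75.5% and 75.3% to 84.3% for Fosl1. For Fosl1 in library 1 the thinned share was lower in ciliated-like (14.3%) than in secretory-like cells (17.7%), while the level was 218 against 194 CPM, so no order of these 2 classes is read there. Egr1 in library 1 had a higher thinned share in ciliated-like (20.3%) than in basal-like cells (14.3%), but a level of 192 against 251 CPM. No order of ciliated-like and basal-like cells is thus read for Egr1 in library 1. In libraries 2 and 3 these shares were 20.2% against 20.5% and 21.2% against 21.7%.

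Most ciliated-like cells had several members at once. After thinning, 3 or more of the 9 genes were seen in 84.3%, 80%, 85.4% and 88.5% of ciliated-like cells of libraries 1 to 4, in 68.4%, 77.2%, 79.6% and 79.7% of basal-like cells and in 19.7%, 18.8%, 22.8% and 22.3% of secretory-like cells. No member was seen in 0.996% to 2.18% of ciliated-like, 0.694% to 2.95% of basal-like and 16.3% to 18.5% of secretory-like cells. Secretory-like cells thus held the largest share of cells with 0 of the 9 genes in each library. The 1000 UMIs kept per cell include marker genes, which held 40.4% to 43.7% of UMIs in secretory-like cells. Fewer UMIs were thus left there for other genes, in these and in all thinned shares, and the part of this was not tested.

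Within ciliated-like cells, most members were seen more often in cells with Fos. Egr1 was seen in 31.1%, 30.02%, 30.5% and 39.5% of the cells with Fos, and in 7.98%, 6.81%, 6.90% and 8.52% of the cells without Fos, in libraries 1 to 4. Fosb was seen in 42.5%, 36.8%, 40.7% and 55.1% of the cells with Fos, against 12.3%, 15.3%, 16.6% and 23.9% of those without. Fosl1 ran the other way, with 12.3%, 7.75%, 7.03% and 10.9% of the cells with Fos against 16.5%, 11.2%, 10.8% and 15.7% of those without. Fosl2 differed little, with 23.9%, 18.1%, 22.3% and 24.0% against 25.9%, 19.6%, 24.4% and 20.6%. In basal-like cells Egr1 was seen in 43.4%, 38.3%, 43.0% and 29.9% of the cells with Fos, against 9.62%, 14.8%, 15.5% and 10.8% of those without. All these cells were thinned to the same depth, but they differed in depth before thinning. Summed over libraries, the ciliated-like cells deepest before thinning had the lowest Fos, Fosb and Egr1 levels and the highest Fosl1 level. The part of original depth, cluster or RNA quality in these differences was not tested.

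Depth of the unthinned cell went with the members' level. Summed over libraries, ciliated-like cells of 500 to 2000, 2000 to 5000, 5000 to 10000 and 10000 or more UMIs had Fos at 2163, 2183, 1224 and 434 CPM. Basal-like cells of the same bins had Fos at 898, 411, 243 and 228 CPM, and secretory-like cells at 573, 230, 62.8 and 38.6 CPM. In these sums the deepest cells had the lowest level in each class, and ciliated-like cells the highest in every bin. Single libraries departed from this at 10000 or more UMIs, where library 2 had Fos at 208 CPM in its 19 ciliated-like cells and 217 CPM in basal-like cells. In library 3 secretory-like Fos was at 74.8 CPM at 5000 to 10000 UMIs and 82.0 CPM above that, and in library 4 basal-like Fos at 257 and 287 CPM. Of the 405 deepest ciliated-like cells, 276 were from library 1. Jun fell over the bins in ciliated-like cells, with 6117, 4822, 3084 and 2445 CPM, but stayed at 2832, 2960, 3058 and 3091 CPM in basal-like cells. Fosl1 ran upward in ciliated-like cells, with 69.1, 99.6, 218 and 249 CPM. The bins are of whole cells, and whether shallow cells were smaller, damaged or of another state was not tested.

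**Figure D3:**
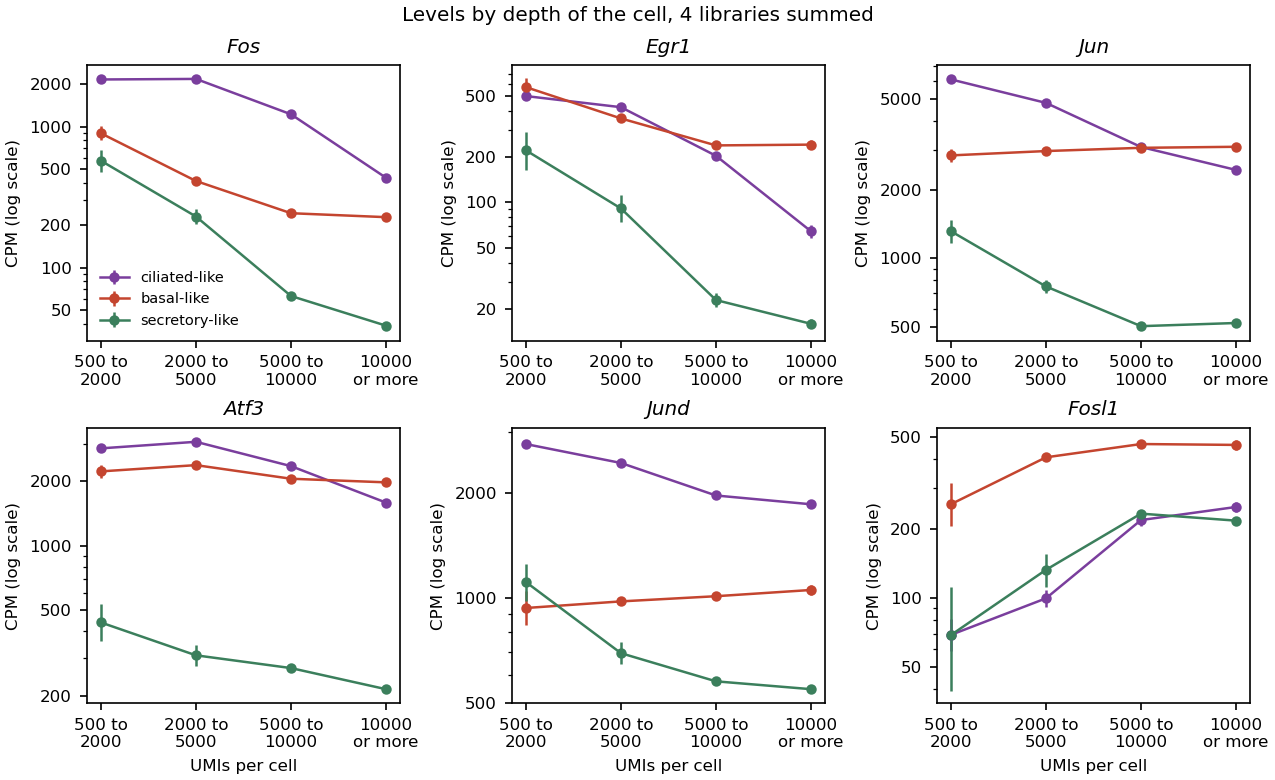
Level in CPM (log axis) of 6 members by UMIs per cell in 4 bins, for ciliated-like, basal-like and secretory-like cells, with the 4 libraries summed and 95% Poisson intervals. Fos is higher in ciliated-like cells in every bin, Jun crosses between ciliated-like and basal-like cells, and Fosl1 is higher in deeper ciliated-like cells.

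Cells of like depth showed how much of each class difference remained. Over libraries 1 to 4, cells of 2000 to 5000 UMIs had Fos at 2214, 2476, 1502 and 2780 CPM in the ciliated-like class, 335, 531, 350 and 434 CPM in basal-like cells and 274, 366, 203 and 188 CPM in secretory-like cells. The ciliated-like level stayed far above the others, and basal-like cells were above secretory-like cells in each of the 4 libraries, although the ranges over libraries overlapped. Egr1 in this bin was at 427, 403, 244 and 667 CPM in ciliated-like, 380, 431, 377 and 269 CPM in basal-like and 133, 88.3, 109 and 44.3 CPM in secretory-like cells, still without overlap between basal-like and secretory-like cells. Only 38, 45, 142 and 90 secretory-like cells fell in this bin, so it describes the shallow tail of that class. In all cells of 2000 to 10000 UMIs, the basal-like calls of Fos and Fosb missed the rule, with median log2 ratios over secretory-like cells of 2.18 and 1.35, while those of Jun, Junb, Atf3 and Egr1 held.

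The ciliated-like class was not uniform. Its 4 clusters had medians of 750, 1449, 2646.5 and 7337.5 UMIs per cell and Fos at 638, 2728, 2583 and 610 CPM, so Fos was highest at middle depths and low at both ends. Jun was at 916, 7909, 4509 and 2460 CPM in the same order, and Egr1 at 56.4, 610, 503 and 86.1 CPM. The shallowest cluster had 307 cells and a median mitochondrial share of 0.181% of UMIs, against 2.93%, 2.99% and 4.97% in the other 3, and its Atf3 level of 2152 CPM was close to those of the 2646.5 and 7337.5 UMI clusters, at 2483 and 1865 CPM. The shallowest cells were thus not those with the most Fos. The split held in each library, with Fos at 2513, 2235, 2246 and 3660 CPM in the cluster of 1449 UMIs and at 403, 430, 573 and 1083 CPM in that of 7337.5 UMIs.

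Among basal-like cells, Fos was at 557 CPM in the cluster of 3458 median UMIs and at 162 and 163 CPM in those of 4783 and 5428.5 UMIs, and Egr1 at 413, 243 and 72.4 CPM in that order. Jun had the opposite order, at 2784, 3083 and 3631 CPM. The cluster of 5428.5 UMIs also had 5 of 8 hillock markers up, and that of 4783 UMIs had 4 of 8. The cluster of 5428.5 UMIs held 24, 25, 151 and 186 cells in libraries 1 to 4, so its levels rest mostly on libraries 3 and 4. Among secretory-like cells, a small cluster of 321 cells with 2243 median UMIs had Fos at 457 CPM and Fosl1 at 26.4 CPM. The clusters of 10862.5 and 11421 UMIs had Fos at 52.8 and 32.8 CPM and Fosl1 at 238 and 204 CPM. The small cluster thus had the most Fos and the least Fosl1 of the class, and its median mitochondrial share was 7.32%, against 4.13% and 3.67% in the other 2. Clusters were built without the listed genes, but from the same cells, and their differences are a description.

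**Figure D4:**
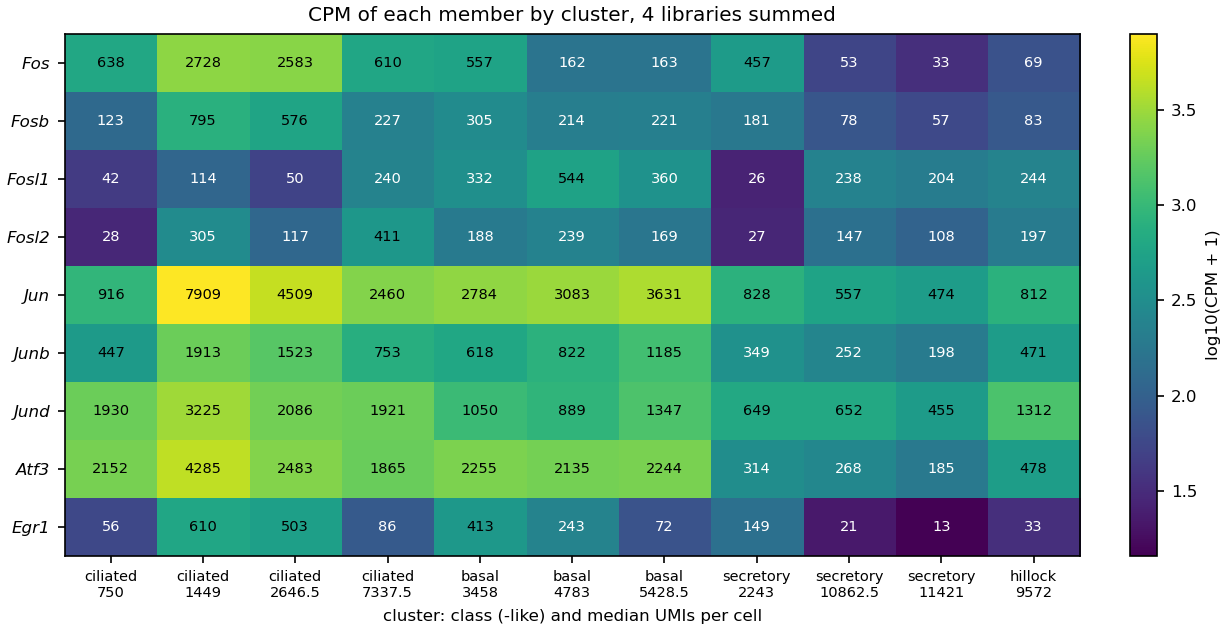
Level of each gene by cluster, as printed CPM with the 4 libraries summed (colour, log10 of CPM + 1), for the ciliated-like, basal-like, secretory-like and hillock-like clusters, labelled with their median UMIs per cell. Colours are to be compared along a row. Fos reaches 2728 and 2583 CPM in 2 ciliated-like clusters and 638 and 610 CPM in the other 2.

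Between libraries, a member was counted as apart where the highest level was at least 2-fold the lowest and the 95% intervals did not overlap. Of 27 pairs of member and class, 5 were apart. In ciliated-like cells these were Fosb (2.23-fold) and Egr1 (2.05-fold), both highest in library 4 and lowest in library 1, against 6.54% of 9256 genes. In secretory-like cells they were Fos (2.89-fold), Fosb (3.88-fold) and Egr1 (2.23-fold), each highest in library 3 and lowest in library 1, against 9.58% of 9825 genes. In basal-like cells 0 of 9 members were apart, against 8.81% of 8789 genes. The median ratio of highest over lowest over all genes was 1.37 in ciliated-like and basal-like and 1.38 in secretory-like cells.

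Depth differed between libraries too. Secretory-like cells had medians of 16063, 11954.5, 8189 and 10748.5 UMIs in libraries 1 to 4, and library 3, with the highest Fos there, was the shallowest. Among secretory-like cells of 10000 or more UMIs, Fos was still highest in library 3, at 24.4, 34.9, 82.0 and 29.1 CPM in libraries 1 to 4. Among those of 5000 to 10000 UMIs it was at 105, 58.1, 74.8 and 34.1 CPM, highest in library 1, where the bin held 53 cells. In ciliated-like cells of 500 to 2000 and of 2000 to 5000 UMIs, Egr1 was highest in library 4, at 774 and 667 CPM. At 5000 to 10000 UMIs it was at 303, 150, 111 and 200 CPM in libraries 1 to 4, highest in library 1. Ciliated-like Fosb was at 534, 418, 355 and 919 CPM at 2000 to 5000 UMIs. At 5000 to 10000 UMIs it was at 422, 173, 255 and 495 CPM. Library 1, lowest for both genes in the class sums, was thus not the lowest in these bins, nor in the shallowest or deepest bin. Its 276 ciliated-like cells of 10000 or more UMIs had Egr1 at 39.9 CPM and Fosb at 124 CPM. A library is 1 pool of animals and 1 preparation, so genotype, animals, handling and depth cannot be told apart in these values.

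The partners and neighbours of the members in the pathway were taken from lists of 129 other gene symbols. Of these, 128 were found, and the symbol Cyr61 was not. Of those tested, 29.4% were called higher and 7.56% lower in ciliated-like over secretory-like cells, beside 31.0% and 2.95% of all genes. In basal-like over secretory-like cells 40.5% were higher and 2.48% lower, beside 17.3% and 2.13% of all genes, and in ciliated-like over basal-like cells 7.5% were higher and 28.3% lower, beside 21.3% and 10.2% of all genes. Counts of the single lists are to be read against these shares. The medians were 0.73, 1.07 and -0.20 in that order, beside 0.81, 0.55 and 0.27 over all genes.

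The other Egr genes and their Nab corepressors were called mostly in the comparisons with secretory-like cells. In ciliated-like over secretory-like cells 4 of 5 were called higher, Egr3 with a median log2 ratio of 4.57, Egr2 with 4.0, Nab2 with 2.54 and Egr4 with 2.15. In basal-like over secretory-like cells 3 of 5 were (Egr3 2.34, Egr2 1.96, Nab2 1.91), and in ciliated-like over basal-like cells 1 was, Egr3 with 1.95. Nab1 was called in none of the 3, with medians of 0.16, 0.22 and -0.02. Egr4 rested on 131 UMIs and Egr3 on 1160 in ciliated-like and secretory-like cells together.

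Other immediate early transcription factors had list medians of 1.59 in ciliated-like over secretory-like, 2.21 in basal-like over secretory-like and -0.48 in ciliated-like over basal-like cells. In ciliated-like over secretory-like cells 10 of 18 were called higher, led by Ier2 (3.48), the Notch target Hes1 (3.37), the orphan nuclear receptor gene Nr4a1 (3.12) and Klf2 (2.62). For basal-like over secretory-like cells, 16 of 18 were, led by Id3 (3.74), Sox9 (3.63), Klf4 (3.60) and Nr4a2 (2.97). In ciliated-like over basal-like cells Klf2 was higher (2.16) and 6 were lower, led by Myc (-3.94), Klf4 (-3.27), Id3 (-3.26) and Sox9 (-2.85). Several of these, such as Id3, Sox9 and Myc, are also known regulators of progenitor cells, so the list does not hold stress genes alone.

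Feedback genes, whose products shut the response down by removing phosphate from MAP kinases, degrading early RNAs or blocking cytokine signals, had list medians of 1.13, 2.19 and -1.58 in the same 3 comparisons. For basal-like over secretory-like cells, 10 of 14 were called higher, led by Dusp2 (4.19), Zfp36l2 (4.05), Socs3 (3.26) and Dusp6 (3.25). In ciliated-like over basal-like cells 0 were higher and 8 of 14 lower, led by Dusp2 (-3.47), Spry4 (-2.63), Dusp6 (-2.21) and Tnfaip3 (-1.99). Uncalled members of the list included Nfkbia at 0.73 and Zfp36 at 0.64 in ciliated-like over basal-like cells, and Dusp5 at -0.07 and Tnfaip3 at 0.05 in basal-like over secretory-like cells. In ciliated-like over secretory-like cells 4 of 12 were higher, Zfp36l2 (2.24), Zfp36 (2.21), Socs3 (1.80) and Nfkbia (1.56), and Tnfaip3 was lower (-1.72).

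Upstream of the members are MAP kinases and serum response factor with its partners. Of 14 MAP kinase genes tested in each comparison, Mapk3, which encodes ERK1, was the 1 called in ciliated-like over secretory-like cells (1.43), and 0 were called in basal-like over secretory-like cells. In ciliated-like over basal-like cells 3 were higher, Mapk3 (1.95), Mapk11 (1.73) and Mapk12 (1.54), a share near the 21.3% of all genes. Of 6 genes for serum response factor and its partners, Mrtfb was called higher in ciliated-like over secretory-like (1.25) and over basal-like cells (1.32), and 0 in basal-like over secretory-like cells. Of the other bZIP genes, which encode possible partners, 5 of 22 were higher in ciliated-like over secretory-like cells, among them the stress factor Ddit3 (2.54) and Mafa (2.20), and Atf5 was lower (-2.15). For basal-like over secretory-like cells, 8 of 21 were higher, among them Mafa (3.23), Cebpd (2.99) and Maf (2.72), and in ciliated-like over basal-like cells 4 of 21 were lower, led by Cebpd (-2.26) and Atf5 (-1.87).

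Heat shock genes, chaperones induced by protein damage and also known to respond to dissociation, had list medians of 0.63, 0.24 and 0.92 in the same 3 comparisons. In ciliated-like over secretory-like cells 4 of 14 were called higher, Dnajb1 (2.88), Hsph1 (2.02), Hsp90aa1 (1.66) and Dnajb4 (1.62), a share near the 31.0% of all genes. For basal-like over secretory-like cells, 0 were higher and 2 lower, Hspa1a (-1.25) and Hsph1 (-1.20), where Hspa1a has a near-identical copy in Hspa1b and its count is uncertain. For ciliated-like over basal-like cells, Hsph1 (3.22), Dnajb1 (1.86) and Hsp90aa1 (1.39) were higher and Hspa5 (-1.34) lower.

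Early genes for secreted and surface proteins had list medians of -0.85, 1.10 and -2.19 in the same 3 comparisons. For ciliated-like over basal-like cells, 0 were higher and 8 of 14 lower, led by Cxcl2 (-4.64), Cd44 (-4.56), Cxcl1 (-4.47) and Cxcl10 (-3.31). For ciliated-like over secretory-like cells, 3 of 14 were higher, the growth factor genes Areg (1.73) and Hbegf (1.71) and the matrix gene Thbs1 (1.69), and 4 were lower, led by Cd44 (-4.13) and Plau (-2.90). For basal-like over secretory-like cells, 5 of 15 were higher, led by Cxcl10 (3.83), Areg (2.92) and Cxcl1 (2.87), and Tnf was lower (-1.61). Growth arrest and p53 stress genes were called higher in basal-like over secretory-like cells in 7 of 14 cases, led by Cdkn1a (3.73) and Ddit4 (3.07). For ciliated-like over secretory-like cells, 3 of 14 were higher, Cdkn1a (2.13), Mdm2 (1.96) and Rhob (1.29), and 3 lower, led by Trib3 (-2.54). For ciliated-like over basal-like cells, 0 were higher and 7 lower, led by Sesn2 (-3.15) and Trib3 (-3.01).

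Genes with the profile most like each member were sought among 9115 genes over 16 points, the 4 large classes in 4 libraries, by Pearson correlation of log2(CPM + 1). For Fos they were Csrp2 (r = 0.99), Pltp (0.98), Calm2 (0.98), Ankrd37 (0.98) and Slc25a17 (0.98). The closest gene was Dhrs3 for Fosb (0.97), Mat2a for Fosl1 (0.95), Nsrp1 for Fosl2 (0.99), Pdk4 for Jun (0.99), Hes1 for Junb (0.99), Trir for Jund (0.99), Rsrc2 for Atf3 (0.98) and Zfp428 for Egr1 (0.98). No member was the closest gene of another, but Atf3 was at rank 4 for Jun (0.98). The points share cells, libraries and totals, and with 4 classes a high correlation is easily reached.

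Markers of other cell types within the classes were as follows. Secretory markers, which free RNA can carry, summed to 14104 to 31817 CPM in ciliated-like and 10776 to 22529 CPM in basal-like cells, against 391391 to 426944 CPM in secretory-like cells. Fibroblast markers, 7 of 7 measured, summed to 0.570 to 3.11 CPM in ciliated-like, 125 to 239 CPM in basal-like and 0.656 to 1.39 CPM in secretory-like cells. Macrophage or monocyte markers summed to 869 to 3406 CPM in ciliated-like, 45.6 to 242 CPM in basal-like and 2797 to 6147 CPM in secretory-like cells, while Adgre1, C1qa and C1qc were at 0 in all 3. T cell markers summed to 0.643 to 1.71 CPM in ciliated-like, 2.47 to 3.48 CPM in basal-like and 0.442 to 0.974 CPM in secretory-like cells, with Cd3d, Cd3g and Trbc1 at 0. The median mitochondrial share was 3.71%, 5.31% and 3.95% of UMIs in ciliated-like, basal-like and secretory-like cells. The part of these values in the members' levels was not tested.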

How the data were processed

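Cells of 4 libraries were analysed from 1 matrix of raw UMI counts that the authors deposited. The counts came from Cell Ranger 6.0.1, per the file headers. The build was GRCm39, per the submitters' processing notes. The annotation release is not given in the sources used here. Other deposited values, gene symbols and barcodes, carry no unit.

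Of 21667 barcodes (44520016, 39658153, 53491773 and 47459846 UMIs in libraries 1 to 4), 1308 were dropped for having fewer than 500 UMIs, fewer than 300 genes, or a mitochondrial share above 20%. Doublets were scored with scrublet in scanpy 1.11.5. Its automatic call marked 0.157% and was taken as failed, so the top scores of each library were removed at 0.8% per 1000 cells (888 cells), leaving 19471. Barcode sequences shared between libraries (52) were kept as separate cells, and free RNA was not subtracted.

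Cells were clustered on 2000 variable genes (members and listed genes left out), 30 principal components, 15 neighbours and Leiden resolution 1. A name needed 3 markers, each seen in 10% or more of the cluster and lying 1 log2 unit above the 25th percentile of clusters (5 CPM added). This scoring rule was set after clusters were seen, so names are given as X-like. Clusters with 75% or more of another lineage's markers up were called mixed (2372 cells), where basal, secretory, gland and hillock lists counted as 1 lineage and proliferating clusters were exempt.

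UMIs were summed per class and library. Ratios used a pseudocount of 1 CPM, and intervals were exact Poisson or Clopper-Pearson at 95%. With 1 library per genotype, no test was made. The scripts were tested on simulated data. TMM factors came from edgeR 4.0.16, and promoters from RefSeq on GRCm38.p6, used for sequence only. All 9 members are named, with up to 4 called genes of each list by size of the median ratio, the 5 genes most like Fos and the 1 most like each other member. A listed gene that this rule also names is not reported here. Members and lists were chosen with earlier results of these data known.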

Additional observations from a re-analysis of the deposited data

How the results depend on the processing

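Member calls were recomputed under other clusterings, filters, scalings, depths, pseudocounts and with each library left out. Of 459 recomputed member ratios, 380 moved by less than the spread between libraries, 79 by more, and 0 of the called ones changed direction. Uncalled Egr1 in ciliated-like over basal-like cells, at -0.37, became 0.33 with gating. The count of members higher in ciliated-like over secretory-like cells was 7 to 8 with 1 library left out, where Fosl2 joined without library 2, and that in basal-like over secretory-like cells stayed at 6. In ciliated-like over basal-like cells the count of 1 became 2 with cells gated by marker share and with TMM scaling (Fos higher, Fosl1 lower). It became 3 with the mean over cells and with thinned cells (Jund also higher), and was 1 to 2 with 1 library left out, where Fosl1 joined as lower without library 1 and Jund as higher without library 4. Members apart between libraries numbered 3 in place of 5 at Leiden resolution 0.5, at resolution 2, at most 10% mitochondrial UMIs and with gating. Ciliated-like Egr1 was the one lost in all 4 settings. The cause was not tested. The hillock-like name was not stable. At resolution 0.5 it fell on 380 cells with 7 of 9 basal and 5 of 8 hillock markers up. These were close in number and median depth (5563.5 UMIs) to the basal-like cluster of 386 cells and 5428.5 UMIs. Hillock-like cells numbered 165 at resolution 2 and 168 with at most 10% mitochondrial UMIs, against 731. The recomputed ratios do not cover hillock-like cells.

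In basal-like over secretory-like cells the call of Fos was lost in cells of 2000 to 10000 UMIs, that of Fosb there, under TMM and with marker genes left out of the totals, and that of Junb under those last 2. In ciliated-like over secretory-like cells Fosb was lost under TMM and with marker genes left out, and Jund under TMM. Fos in ciliated-like over basal-like cells was called in all 17 alternatives, with medians of 1.95 to 2.46. No test paired by library was run over the class ratios, since there were 4 libraries only. Each class ratio is already taken within a library. Depth limits the rare classes, where no library held more than 71 cells.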

Other observations

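A cluster of 335 shallow cells stayed unnamed, with a median of 636 UMIs and 10.3% mitochondrial UMIs. Of its cells, 249 were in library 1, 39 in library 2, 7 in library 3 and 40 in library 4. The 9 genes summed to 20083, 20979, 12680 and 21908 CPM there in libraries 1 to 4, above every named class of the same library. Jun was at 8410, 9407, 5247 and 9205 CPM, and Egr1, summed over libraries, at 1310 CPM (95% Poisson interval 1167 to 1465), against 257 CPM in ciliated-like cells. Atf3, at 1078 CPM, was below its ciliated-like level of 2383 CPM. Library 3 rested on 87 UMIs of the 9 genes.

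Mixed clusters, 2372 cells with markers of more than 1 lineage, had Fos at 96.6, 107, 267 and 369 CPM in libraries 1 to 4, with libraries 3 and 4 the higher ones. Whether these were doublets was not tested.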
